A study of Mus musculus with 11 samples.

Results

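The collagen chain genes were chosen by name, as all genes of the array design called Col, then a type number, the letter a and a chain number, with control spots left out. This rule found 40 of the 27962 gene names on the array, carried by 78 probes on 96 spots. They comprised 6 genes of the fibrillar types 1, 3 and 5, 8 genes of the basement membrane types 4, 15 and 18, and 26 genes of other types. RNA of normal mouse liver had been hybridised to 11 Agilent 4x44k arrays with 2 colours, 3 from embryonic day 14 (E14), 3 from embryonic day 18 (E18), 2 from postnatal day 5 (P5, numbered replicates 2 and 3) and 3 from postnatal day 56 (P56). The embryonic days are those of the labels, and the study's results text writes them as E14.5 and E18.5. The liver RNA was labelled with Cy5 on every array. A common reference, bought as RNA of normal adult liver, was labelled with Cy3, and dyes were never swapped. The labels name mouse liver as the source and add a cell type, hepatoblasts at E14, immature hepatocytes at E18 and hepatocytes for both postnatal stages, with no genotype, treatment or sex. Because the methods speak both of whole livers and of cells isolated from fetal livers (C57BL/6, selected by E-cadherin), it is not settled whether an embryonic array held isolated cells. The samples are called biological replicates without a statement that each came from a separate animal, so p-values measure the spread between these arrays.

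Collagens are triple helices of 3 chains, and the helical part of a chain repeats glycine at regular steps. Types 1, 3 and 5 assemble into fibrils that give tissue its tensile strength. Type 4 builds the sheet-like network of basement membranes, and types 15 and 18 carry sugar chains and sit at the edge of that network. Among the genes of the remaining types, 5 also belong to fibrillar types, such as Col2a1 and Col11a1, and are counted here with the other types. The rest cover fibril surfaces, form beaded filaments, short-chain networks or anchoring fibrils, or span the cell membrane, with Col28a1 left unassigned. In liver, stellate cells and portal fibroblasts are known sources of fibrillar collagen, endothelial and stellate cells of type 4, and hepatocytes of type 18.

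The glycine repeat was visible in the probes themselves. In 3 of the 78 probes, glycine codons (GGN) recurred at every 9 bases along the whole 60 bases. They are shown because the repeat runs through them without a break, with the glycine codons in capitals. Probes that lie only partly in the helix, or across a break in the repeat, were not searched for (sequences of the array design, coordinates on mm7):
Col11a2, chr17:32131401-32131567, plus strand: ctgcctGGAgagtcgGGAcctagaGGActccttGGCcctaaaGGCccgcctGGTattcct
Col5a1, chr2:27994034-27996457, plus strand: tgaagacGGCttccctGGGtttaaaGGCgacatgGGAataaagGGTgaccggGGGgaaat
Col5a3, chr9:20655471-20656200, minus strand: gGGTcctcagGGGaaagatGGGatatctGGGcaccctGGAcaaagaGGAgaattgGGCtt
Each span exceeds the 60 bases of the probe, at 167, 2424 and 730 bases, so each probe crosses at least 1 exon junction. These probes were dim. They were well above background in the liver channel on 6, 2 and 0 of the 11 arrays, whereas the probes used for the same genes were above it on 9, 11 and 7 arrays. None of the values for Col5a1, Col5a3 or Col11a2 below comes from these probes.

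Each array held 43379 spots without controls, and 16790 to 25718 of them were well above background in the liver channel. The P56 arrays had 16790 to 23079 such spots and the other arrays 22027 to 25718, and a collagen probe was above background for 20 to 25 of the 40 genes there, against 25 to 30 at the other stages. Of the 40 genes, 28 had a probe above background on every array of 1 stage or more and were tested among 16702 genes, comprising 6 of 6 fibrillar, 5 of 8 basement membrane and 17 of 26 other genes. A gene could pass this filter through its brightest stage alone. Values are log2 ratios of liver over adult reference after loess normalization within the array, so 0 marks equal normalized signal in both channels. Because dyes were never swapped, the distance from 0 can also hold dye bias. Stages were compared with limma, and a gene is called at a Benjamini-Hochberg adjusted p under 0.05 over all genes tested. Hepatocyte marker genes averaged -4.23 to -4.09 at E14 and -0.46 to 0.14 at P56, and hepatoblast marker genes 4.10 to 4.19 and -0.03 to 0.23. Erythroid genes averaged 3.26 to 3.53 on the embryonic arrays, which are labelled with parenchymal cell types. Over the collagen genes the 2 P5 arrays lay farthest apart, with a Pearson r of 0.736 across the 28 genes against 0.929 to 0.979 for replicate pairs of the other stages. Over all genes tested with a value on every array, r was 0.9 for the P5 pair, 0.825 to 0.937 for the P56 pairs and 0.969 to 0.99 for the fetal pairs. Of the 28 collagen genes, 19 were higher on P5 replicate 2.

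Across the 4 stages, 23 of the 28 genes tested differed by the F test, against 79.5% of all genes. From E14 to E18, 7 collagen genes rose and 4 fell, where 24.5% of all genes tested rose and 22.8% fell. From E18 to P5, Col13a1 rose and Col11a1 fell, where 7.31% and 6.38% of all genes did. By the probes used, most of the decline lay after P5. From P5 to P56, 14 collagen genes fell and 1 rose, beside 24.7% and 21% of all genes, and from E18 to P56, 16 fell and 4 rose, beside 33.5% and 31.3%. Between the ends of the course, 15 were lower and 5 higher at P56 than at E14, beside 34.7% and 36.2%. These comparisons share arrays, so their counts are not independent of each other. By scan date, the E14 arrays shared a scan with E18 replicate 1, and the P56 arrays shared one with P5 replicate 3. No scan held both embryonic and postnatal arrays. Stage and scan therefore cannot be told apart from E18 to P5, from E18 to P56 or from E14 to P56. At P56, 15 of the 28 genes lay below the adult reference on all 3 arrays and 4 above it, while at E18 16 lay above it and 5 below. The same count over all genes tested was not made, so these numbers have no background share beside them.

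**Figure D1:**
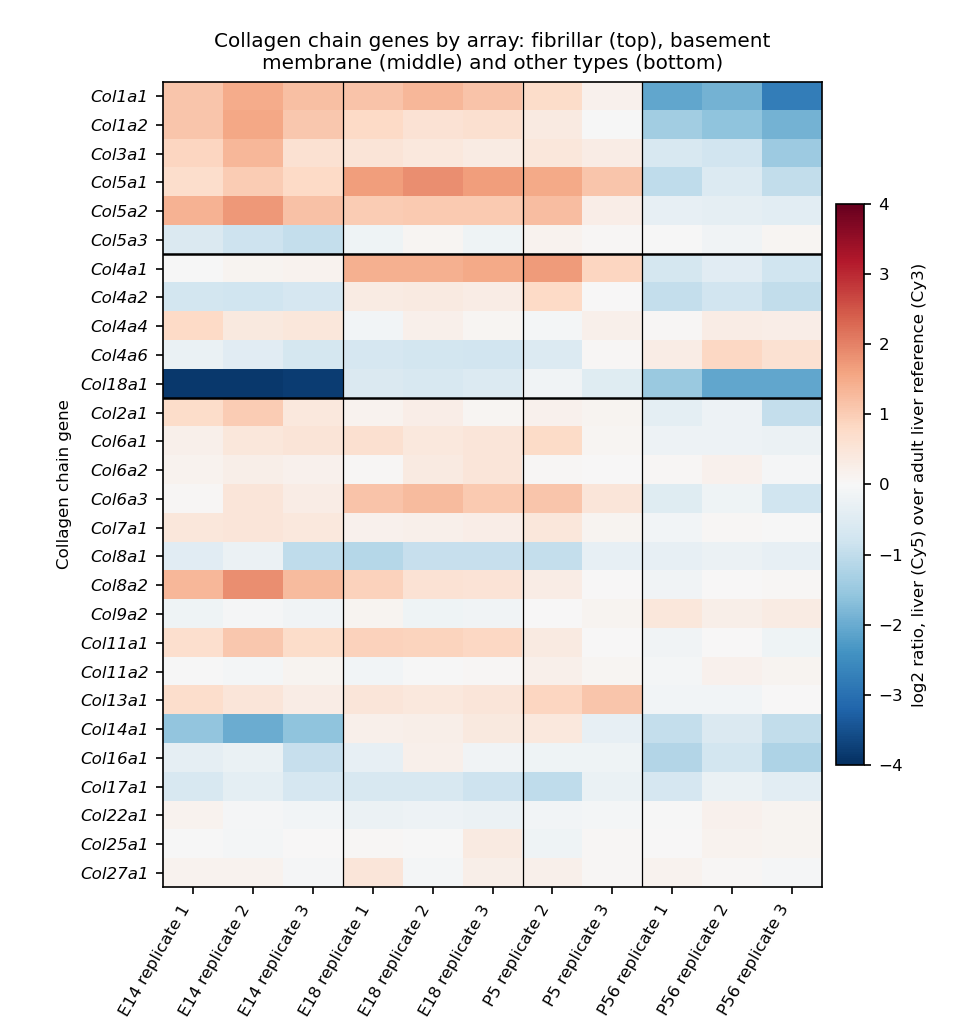
Heat map of the log2 ratio of liver over adult reference for the 28 collagen genes tested (one line of cells per gene, fibrillar at the top, basement membrane in the middle, other types at the bottom) on each of the 11 arrays (columns, by stage and replicate). Red is above and blue below the reference; the fibrillar chains other than Col5a3 are mostly red before adulthood and blue at P56, Col5a3 is blue at E14 and pale later, and Col18a1 is darkest blue at E14.

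Of the 6 genes of fibrillar types 1, 3 and 5, all but Col5a3 had their lowest mean in adult liver, and Col5a3 had it at E14. Of the 6 tested, 5 fell from E18 to P56 and from P5 to P56, and Col5a3 was not called in either comparison. The median change of the class was -1.86 on the log2 scale from E18 to P56 and -0.22 from E14 to E18, where the median over all genes tested was -0.01 in both. The first of these ranged over the alternative settings from -2.84 with the scanner's processed signals to -1.13 with the authors' deposited table of log2 ratios, and that table turned the second to 0.11. In RNA of many cells together, fewer cells of a type and less RNA per cell cannot be told apart, here or in any comparison that follows. If the embryonic arrays held isolated cells, stage and preparation cannot be told apart either. Col1a1 and Col1a2 encode the chains of type 1 collagen, and of the 6 genes Col1a1 had the largest fall to P56 from each earlier stage. Col1a1 had log2 ratios of 1.10, 1.49 and 1.19 at E14, 1.13, 1.33 and 1.15 at E18, 0.73 and 0.19 at P5, and -2.09, -1.88 and -2.76 at P56. Arrays of both fetal days overlapped, both P5 arrays lay below them, and every P56 array lay far below the rest. Although the reference was adult liver too, every P56 array lay farther below it (-1.88 at the nearest) than any fetal array lay above it (1.49 at the highest). Most of the Col1a1 fall from E18 to P56 thus lay below the level of this adult reference, and the cause of that offset was not tested. The level was 10.9-fold lower at P56 than at E18 (log2 fold change -3.45 ± 0.21 SE, limma adjusted p = 8.98e-08) and 6.51-fold lower than at P5 (adjusted p = 4.07e-06). Between E18 and P5 it differed by -0.74 ± 0.24 and was not called (adjusted p = 0.0584), which does not show that the stages were alike. From P5 to P56 the other Col1a1 probes, above background on 8 and 5 arrays, gave -0.57 and 0.02.

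Col1a2 had log2 ratios of 1.11, 1.55 and 1.08 at E14, 0.78, 0.57 and 0.65 at E18, 0.37 and -0.0045 at P5, and -1.40, -1.61 and -1.88 at P56. Its stages did not overlap and stood in the order of age. The fall from E14 to E18 was small (log2 fold change -0.58 ± 0.16, adjusted p = 0.0105), and the fall from E18 to P56 was 4.91-fold (adjusted p = 2.4e-07), though not called in the authors' table (-0.96, adjusted p = 0.248). The early fall was not called without E14 replicate 2 (-0.43, adjusted p = 0.052) or with the scan as a fixed block (-0.46, adjusted p = 0.133), and it was 0.23 in the authors' table. Col3a1, the chain of type 3 collagen that forms fine reticular fibers, had 0.87, 1.33 and 0.61 at E14, 0.52, 0.42 and 0.33 at E18, 0.45 and 0.28 at P5, and -0.65, -0.77 and -1.45 at P56. Its P56 arrays lay below all others, and the E18 and P5 arrays overlapped. Col3a1 was 2.6-fold lower at P56 than at E18 (adjusted p = 0.000119, and 0.341 in the authors' table), while its lower value at E18 than at E14 was not called (-0.51 ± 0.21, adjusted p = 0.0627). Skeletal muscle markers were also higher at E14 than later. The mean log2 ratio of the 4 skeletal muscle markers tested, of 8 listed, was 0.81, 1.28 and 0.38 on the 3 E14 arrays and 0.00 to 0.19 on all later ones, so it was highest on the array with the highest Col1a2 and Col3a1. This was not particular to muscle, as 15 of the 28 collagen genes were highest on that array. Stellate and mesenchymal markers (-0.03, -0.01 and -0.09) and biliary markers (-0.73, -0.59 and -0.90) were highest there too, but endothelial and chondrocyte markers were not. The part of muscle RNA in these values was not tested.

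The 3 chains of type 5 collagen, which starts fibrils and sets their width, did not move together. Col5a1 had log2 ratios of 0.71, 1.01 and 0.79 at E14, 1.66, 1.87 and 1.68 at E18, 1.53 and 1.12 at P5, and -1.03, -0.56 and -0.99 at P56. It stood above every E14 array at E18 and below every other array at P56. Col5a1 rose 1.87-fold from E14 to E18 (log2 fold change 0.90 ± 0.15, adjusted p = 0.000408, and 0.29 without a call in the authors' table) and was 6.05-fold lower at P56 than at E18 (adjusted p = 5.26e-08). Col5a2 had 1.39, 1.73 and 1.16 at E14, 1.02, 1.04 and 1.06 at E18, 1.24 and 0.28 at P5, and -0.32, -0.37 and -0.44 at P56, where its probe was above background on 1 of 3 arrays. Its E18 arrays lay just below those of E14 without a call (-0.39 ± 0.21, adjusted p = 0.146), and all P56 arrays lay lower. From E18 to P56 Col5a2 fell 2.67-fold (adjusted p = 8.3e-05). Col5a3 had -0.56, -0.84 and -0.95 at E14, where it was not well above background on any array, -0.17, 0.07 and -0.17 at E18, 0.13 and 0.05 at P5, and -0.01, -0.14 and 0.09 at P56. It went up once, between E14 and E18, and the later stages overlapped. The log2 ratio of Col5a3 was 0.70 ± 0.12 higher at E18 than at E14 (adjusted p = 0.000489) and 0.77 ± 0.12 higher at P56 (adjusted p = 0.000105), where 2 of 3 arrays measured it, while the authors' table gave 1.25 and 0.72 without a call. In the Cy5 channel alone, with the E14 level set no lower than the dimmest signal that counted as above background on each array, Col5a3 was at least 1.7-fold and 1.86-fold higher. Here and in the later bounds, the fold was that of the mean Cy5 signals themselves, and the floor did not change the digits given. These bounds thus rest on the observed dim signals and not on a detection limit. Such bounds refer to the Cy5 signal without the reference channel and are open to dye bias, so they can exceed the fold of the log2 ratios.

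The promoters of Col1a2 and Col3a1, which both fell after P5, and the 2 annotated promoters of Col18a1, which rose most from E14 to E18, are shown for comparison. Each line gives the 250 bases before the annotated start, read toward the gene (RefSeq, GRCm38.p6), with matches in capitals to the CCAAT motif (read as ATTGG on the other strand), the TATAAA motif (there TTTATA) and the GGGCGG motif (there CCGCCC):
Col1a2, chr6:4505368-4505617, plus strand: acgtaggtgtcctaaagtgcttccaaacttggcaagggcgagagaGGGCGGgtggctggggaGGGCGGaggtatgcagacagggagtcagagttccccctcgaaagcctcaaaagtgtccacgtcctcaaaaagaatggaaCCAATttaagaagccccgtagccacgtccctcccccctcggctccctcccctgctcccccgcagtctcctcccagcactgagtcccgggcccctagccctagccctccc
Col3a1, chr1:45311288-45311537, plus strand: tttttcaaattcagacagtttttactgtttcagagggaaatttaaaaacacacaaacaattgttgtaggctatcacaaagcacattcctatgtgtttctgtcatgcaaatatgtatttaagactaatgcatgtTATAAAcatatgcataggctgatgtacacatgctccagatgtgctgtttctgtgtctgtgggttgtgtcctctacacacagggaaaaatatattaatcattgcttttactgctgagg
Col18a1, upstream start, chr10:77166531-77166780, minus strand: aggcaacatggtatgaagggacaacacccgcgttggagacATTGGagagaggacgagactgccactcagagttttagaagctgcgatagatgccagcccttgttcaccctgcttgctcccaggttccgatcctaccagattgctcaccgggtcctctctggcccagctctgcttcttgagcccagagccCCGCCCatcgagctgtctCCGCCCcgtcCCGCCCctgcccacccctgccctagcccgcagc
Col18a1, downstream start, chr10:77113706-77113955, minus strand: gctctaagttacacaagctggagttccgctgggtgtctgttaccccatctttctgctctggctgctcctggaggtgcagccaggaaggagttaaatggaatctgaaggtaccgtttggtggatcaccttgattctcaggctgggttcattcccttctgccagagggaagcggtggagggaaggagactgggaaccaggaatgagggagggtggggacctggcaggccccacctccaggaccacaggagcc
The Col1a2 stretch held CCAAT beginning 109 bases before the start and GGGCGG beginning 205 and 188 bases before it. The Col3a1 stretch held TATAAA 117 bases before the start and neither of the other motifs. Upstream of Col18a1, ATTGG lay 210 bases before the start and CCGCCC 61, 43 and 33 bases before it, and the downstream start had none of the letters searched. RefSeq windows of 300 bases were found for 32 of the 40 genes, among them 25 windows of 23 tested genes. In the 250 bases before the start, 10 of these 25 held CCAAT, 4 TATAAA and 17 GGGCGG, on either strand. Over the same bases, 33.8%, 12.4% and 32.7% of all 32851 promoter windows did. These matches describe letters and not binding.

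**Figure D2:**
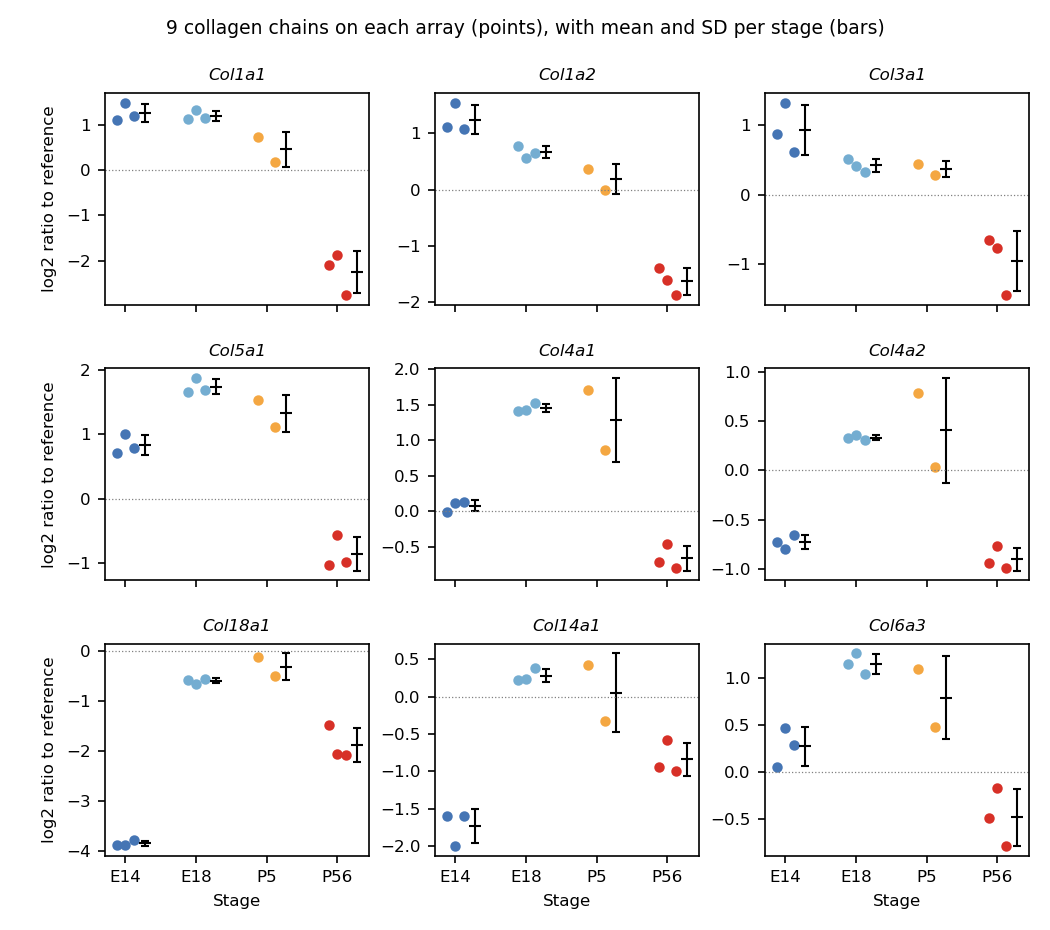
Log2 ratio to the adult reference (vertical axis) at each stage (horizontal axis) for 9 collagen chains; each point is 1 array and the black bars give the mean and SD of the stage. The fibrillar chains Col1a1, Col1a2 and Col3a1 lie above the reference in fetal liver and below it on every P56 array, and Col18a1 and Col14a1 start far below it at E14.

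Among the basement membrane chains, 3 of the 5 tested rose from E14 to E18, and the same 3, Col4a1, Col4a2 and Col18a1, fell from E18 to P56. The median change of the 5 genes was 1.06 from E14 to E18 and -1.23 from E18 to P56, where all 8 genes of the class, dim probes included, gave 0.04 and -0.02, and the authors' table gave 0.42 and -0.91. Col18a1, whose C-terminal fragment is endostatin, showed the largest rise of any collagen gene tested. Its log2 ratios were -3.87, -3.87 and -3.78 at E14, -0.58, -0.65 and -0.55 at E18, -0.13 and -0.50 at P5, and -1.48, -2.06 and -2.08 at P56. Its stages did not overlap, with E14 lowest, P56 next and E18 just below P5, which was not called against E18 (0.28 ± 0.17, adjusted p = 0.306). From E14 to E18 Col18a1 rose 9.49-fold (log2 fold change 3.25 ± 0.15, adjusted p = 2.05e-08), and from E18 to P56 it fell 2.43-fold (adjusted p = 1.73e-05), so that P56 stayed 3.91-fold above E14 (adjusted p = 2.77e-07). Within the scan that held both embryonic days, E18 replicate 1 exceeded the mean of the E14 arrays by 3.26. A second Col18a1 probe, above background on all 11 arrays, gave 2.52 from E14 to E18 and -1.37 from E18 to P56. Hepatocyte markers rose in the same interval, 10 of 11 being called higher beside 24.5% of all genes tested, and their part in the Col18a1 rise was not tested.

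Col4a1 and Col4a2 encode the chains of the most widespread type 4 collagen, and on chromosome 8 their annotated starts lie 21 bases apart, head to head (GRCm38.p6, 11312826 on the minus strand and 11312805 on the plus strand). The minus-strand start has the higher coordinate, so each gene reads across the annotated start of the other. Col4a1 had log2 ratios of -0.01, 0.12 and 0.13 at E14, 1.41, 1.43 and 1.52 at E18, 1.70 and 0.86 at P5, and -0.71, -0.46 and -0.80 at P56. Col4a2 had -0.73, -0.80 and -0.66 at E14, 0.33, 0.36 and 0.30 at E18, 0.78 and 0.03 at P5, and -0.94, -0.77 and -0.99 at P56. For both genes the E18 arrays lay above every E14 and P56 array, and the P5 arrays fell on either side of E18. Col4a1 rose 2.59-fold and Col4a2 2.08-fold from E14 to E18 (adjusted p = 5.43e-05 and 0.000158), and they fell 4.33-fold and 2.35-fold from E18 to P56 (adjusted p = 9.35e-07 and 2.6e-05). Against E14, Col4a1 was lower at P56 (-0.74 ± 0.17, adjusted p = 0.00247), whereas Col4a2 was not called (-0.17 ± 0.15, adjusted p = 0.331). The difference between the 2 genes was not tested. Their second probes gave smaller changes of the same sign, 0.81 and 0.38 from E14 to E18 and -0.76 and -0.70 from E18 to P56, although for Col4a1 the second probe gave 0.05 between P56 and E14. Of 11 endothelial markers tested, 7 rose from E14 to E18 and 7 fell from E18 to P56, beside 24.5% and 33.5% of all genes tested. Their mean log2 ratio was -0.86 to -0.80 at E14, -0.17 to -0.11 at E18, 0.28 and -0.03 at P5, and -0.45 to -0.19 at P56, and their part in the type 4 values was not tested.

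The minor type 4 chains, known from kidney, lung and skin, behaved differently. Col4a6 had log2 ratios of -0.28, -0.44 and -0.69 at E14, -0.67, -0.74 and -0.77 at E18, -0.55 and 0.04 at P5, and 0.30, 0.82 and 0.60 at P56. Its P56 arrays lay above all others, and those of E14 and E18 overlapped. Col4a6 was 2.46-fold higher at P56 than at E18 (log2 fold change 1.30 ± 0.17, adjusted p = 3.54e-05) and was the 1 collagen gene called higher at P56 than at P5 (0.83 ± 0.19, adjusted p = 0.00388). This direction rests on 1 probe. A second Col4a6 probe, above background on 7 arrays, gave -0.33 between P56 and E18 and -0.85 between P56 and E14, and the authors' deposited table gave -0.20 and -1.20. Col4a4 had 0.80, 0.38 and 0.46 at E14, -0.11, 0.21 and 0.08 at E18, -0.06 and 0.21 at P5, and 0.06, 0.31 and 0.28 at P56. It fell slightly from E14 to E18 (-0.49 ± 0.14, adjusted p = 0.0109), a call lost without E14 replicate 1 (-0.36, adjusted p = 0.052), and its second probe (0.42) and the authors' table (0.61) went the other way. Col4a3, Col4a5 and Col15a1 were not tested. The brightest Col4a3 probe was not well above background on any array, and the Col4a5 probe was above it on 5 arrays and on none at P56. The brightest Col15a1 probe reached that mark in liver RNA on 2 P56 arrays only, although in the reference channel it did so on all 11.

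**Figure D3:**
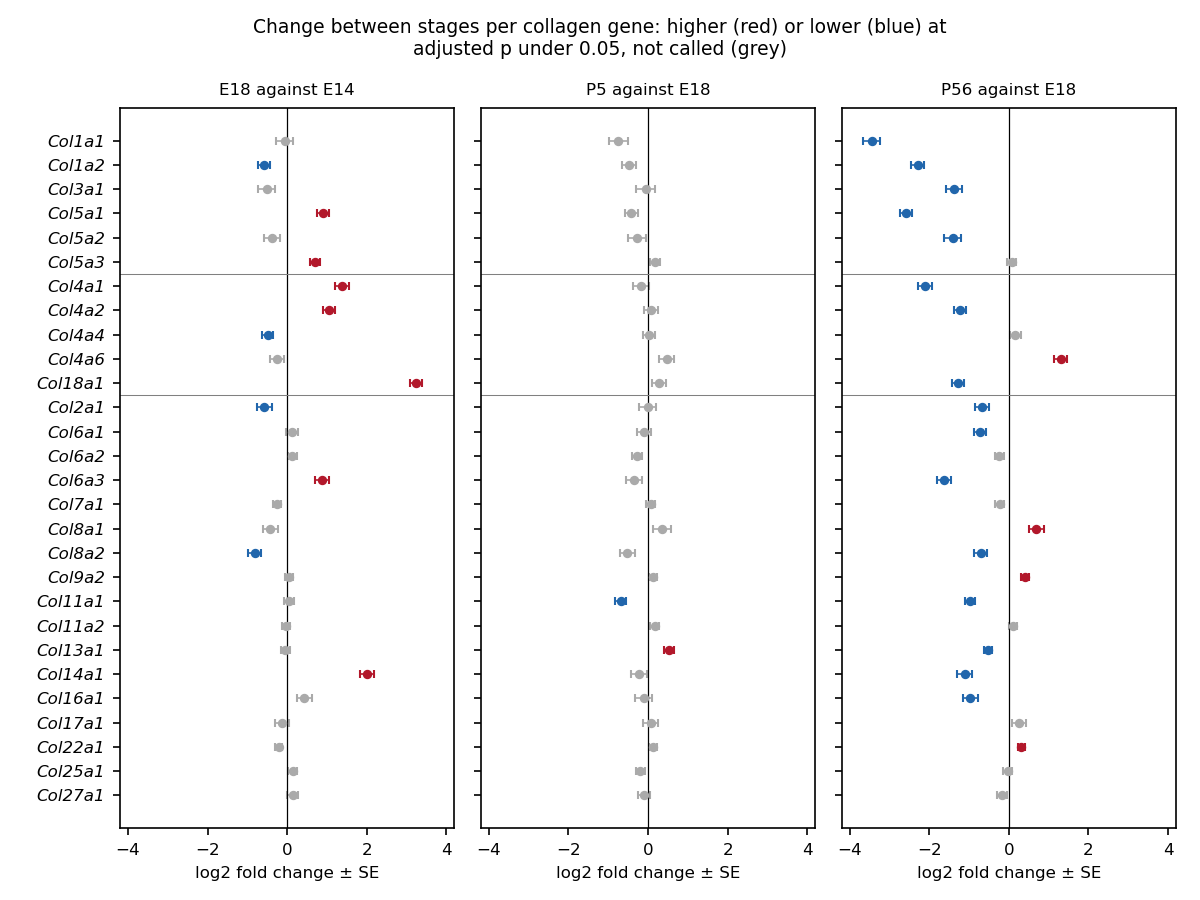
Log2 fold change with its standard error (horizontal axis) for each of the 28 collagen genes tested (vertical axis, fibrillar at the top, then basement membrane and other types) between E14 and E18, E18 and P5, and E18 and P56. Genes called higher are red, genes called lower blue and the rest grey; 7 rose and 4 fell to E18, and 16 fell and 4 rose from E18 to P56.

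The 17 genes of other types that were tested had median changes of 0.04 from E14 to E18 and -0.25 from E18 to P56. The scanner's processed signals gave -0.17 and -0.66, and median centring gave -0.64 for the latter. Single genes of these types moved further. Col14a1, a chain that sits on the surface of fibrils (a FACIT collagen), had log2 ratios of -1.59, -2.00 and -1.60 at E14, 0.22, 0.24 and 0.38 at E18, 0.42 and -0.32 at P5, and -0.94, -0.58 and -0.99 at P56. Its E14 arrays lay below all others and those of E18 above both ends of the course. Col14a1 rose 4.02-fold from E14 to E18 (log2 fold change 2.01 ± 0.19, adjusted p = 3.95e-06), fell 2.16-fold from E18 to P56 (adjusted p = 0.000237) and at P56 was 1.86-fold above E14 (adjusted p = 0.000987), where the authors' table gave -0.39 and median centring gave 0.054 without a call. A dim second probe, above background on 5 of 11 arrays, gave -0.06 from E14 to E18. Col6a3, the longest chain of the beaded filaments of type 6, had 0.06, 0.47 and 0.29 at E14, 1.14, 1.26 and 1.04 at E18, 1.10 and 0.48 at P5, and -0.49, -0.18 and -0.79 at P56. It was higher on every E18 than on every E14 array and lowest at P56. Col6a3 rose 1.84-fold (adjusted p = 0.00198) and then fell 3.1-fold from E18 to P56 (adjusted p = 1.07e-05), while the authors' table gave -0.17 and 0.14. Its partner chains are Col6a1 and Col6a2. Col6a1 was not well above background on any P56 array and in the Cy5 channel was at least 1.58-fold higher at E18 (adjusted p = 0.00148 for the log2 ratios), and Col6a2 was not called in any comparison, with changes of -0.28 to 0.13.

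Several chains were higher in fetal than in adult liver. Col8a2, a short chain that forms lattices in the cornea and around vessels, had log2 ratios of 1.34, 1.86 and 1.27 at E14, 0.92, 0.57 and 0.55 at E18, 0.30 and 0.02 at P5, and -0.14, 0.02 and 0.04 at P56. Its stages followed each other downward, with P5 and P56 overlapping. In the reference channel the Col8a2 probe was well above background on 1 of 11 arrays, so its ratios rest on a dim reference. Col8a2 fell 1.75-fold from E14 to E18 (adjusted p = 0.00143, and 0.0615 with the scan as a fixed block) and in the Cy5 channel was at least 2.86-fold higher at E14 than at P56, where it was not well above background on any array (adjusted p = 4.31e-06 for the log2 ratios). Its partner Col8a1 was 1.62-fold higher at P56 than at E18 (adjusted p = 0.00813), a call lost with median centring in place of loess (log2 fold change 0.079, adjusted p = 0.775). Col11a1, a minor chain of cartilage fibrils, had 0.67, 1.09 and 0.74 at E14, 0.91, 0.88 and 0.84 at E18, 0.37 and 0.02 at P5, and -0.15, 0.01 and -0.16 at P56. Both fetal days lay above both later stages. Col11a1 fell 1.6-fold from E18 to P5 (adjusted p = 0.00884, and 0.097 without P5 replicate 3) and differed by -0.98 ± 0.13 between P56 and E18 (adjusted p = 3.26e-05). No P56 array had it well above background, and the bound in the Cy5 channel was at least 1.99-fold. Col7a1, the anchoring fibril of skin, differed by -0.48 ± 0.10 between P56 and E14 (adjusted p = 0.00133), again with no P56 array above background and a bound in the Cy5 channel of at least 1.49-fold.

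Col2a1, the main collagen of cartilage, was measured by probes that share sequence yet gave different results. The shared 40 bases are in capitals (array design, mm7):
Col2a1, probe with 10 spots, chr15:97979237-97979296, minus strand: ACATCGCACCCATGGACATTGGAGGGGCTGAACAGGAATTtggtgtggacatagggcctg
Col2a1, probe with 1 spot, chr15:97979257-97979316, minus strand: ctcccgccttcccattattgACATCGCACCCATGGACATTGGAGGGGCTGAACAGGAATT
The probe with 10 spots, whose values are used here, had log2 ratios of 0.74, 1.03 and 0.43 at E14, 0.15, 0.27 and 0.06 at E18, 0.17 and 0.12 at P5, and -0.40, -0.22 and -0.94 at P56. All E14 arrays lay above, and all P56 arrays below, the rest. Col2a1 fell 1.48-fold from E14 to E18 (adjusted p = 0.0222) and was 1.6-fold lower at P56 than at E18 (adjusted p = 0.00615). The first of these calls was lost without E14 replicate 1 (adjusted p = 0.056) and without E14 replicate 2 (adjusted p = 0.103). The single spot of the other probe was marked as an outlier on 6 of 11 arrays, and with marked spots kept it became the probe used and turned the direction, to 0.14 from E14 to E18 and 0.44 from E18 to P56. Of 8 chondrocyte markers 4 were tested, with a mean of -0.15 to -0.07 at E14 and 0.11 to 0.40 at E18. From E14 to E18 their median change was -0.02 and the largest rise 1.69, and 1 was called higher and 0 lower. Of all genes tested, 24.5% rose and 22.8% fell in that interval. Of the 4 skeletal muscle markers tested, 3 were called lower at E18 than at E14. The part of either tissue in the Col2a1 values was not tested.

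Other genes of these types also differed between some stages. Col13a1, a chain that spans the membrane at cell contacts, had log2 ratios of 0.70, 0.48 and 0.31 at E14, 0.47, 0.43 and 0.47 at E18, 0.86 and 1.10 at P5, and -0.10, -0.12 and 0.00 at P56. Its P5 arrays were the highest. The rise from E18 to P5 (0.52 ± 0.12, adjusted p = 0.0168) was not called without P5 replicate 3 (adjusted p = 0.158) or without E18 replicate 2 or 3 (adjusted p = 0.054 and 0.051), and the fall from P5 to P56 was 2.07-fold (adjusted p = 3.8e-05). Col16a1, another chain of fibril surfaces, fell 1.96-fold from E18 to P56 (adjusted p = 0.000931), where the authors' table gave -0.04. Its P56 and E14 arrays overlapped although it was called lower at P56 (adjusted p = 0.0266), a call lost in 7 of 25 alternative settings, among them leaving out E14 replicate 1 or 2 or P56 replicate 1 or 3 (adjusted p = 0.0923, 0.112, 0.075 and 0.0968). Col9a2 and Col22a1, also FACIT chains, were 1.33-fold and 1.24-fold higher at P56 than at E18 (adjusted p = 0.00351 and 0.01), and with median centring in place of loess neither was called, at -0.29 for Col9a2 and 0.037 for Col22a1 (adjusted p = 0.0648 and 0.781). The F test called none of Col6a2, Col11a2, Col17a1, Col25a1 and Col27a1, at adjusted p of 0.165 to 0.607. Of the 12 genes not tested, 7 had a brightest probe that was not well above background on any array. The brightest probes of Col9a3, Col23a1 and Col24a1 were above it on 1, 3 and 1 arrays.

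Where a gene had a second probe that passed the filter, its change was mostly smaller. Over the calls from E18 to P56, 8 of 9 such probes had the sign of the probe used and 8 of 9 a smaller size. From E14 to E18, 3 of 5 had the same sign and 5 of 5 a smaller size. The same sign was found for 6 of 8 from P5 to P56 and for 5 of 8 from E14 to P56, and all 8 were smaller in both. For Col1a1, the other probes gave -1.08 and -0.25 from E18 to P56, above background on 8 and 5 arrays. For Col3a1, which lies with Col5a2 on chromosome 1 with probes 28 kb apart, a second probe above background on 5 arrays gave -0.10 from E18 to P56. From P5 to P56 that Col3a1 probe gave -0.00097. Within the scan that held P5 replicate 3 and the 3 P56 arrays, the P56 mean differed from that P5 array by -2.43 for Col1a1, -1.63 for Col1a2, -1.98 for Col5a1, -1.52 for Col4a1 and -1.38 for Col18a1.

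Genes that make, finish, bind and break down collagen were described by 7 lists. From E18 to P56, 10 of the 18 genes tested for modification and folding fell and 2 rose (median -0.43), as did 5 and 0 of 8 for processing and cross-linking, 7 and 1 of 13 for fibril-associated proteins, 9 and 1 of 13 for basement membrane partners, 5 and 1 of 10 for breakdown, 5 and 1 of 8 for receptors and 3 and 1 of 10 for TGF-beta inputs, where 33.5% of all genes tested fell and 31.3% rose. Serpinh1, the chaperone Hsp47 that escorts procollagen through the endoplasmic reticulum, had a log2 fold change of -1.39 from E14 to E18 (adjusted p = 7.2e-05) and -1.18 from E18 to P56 (adjusted p = 0.00015). Fkbp10, a further chaperone of procollagen, fell in both intervals too (-0.79 and -1.02). The prolyl hydroxylase subunits P4hb and P4ha2 rose to E18 (1.66 and 0.96) and fell afterwards (-0.94 and -1.80). Tmem38b and Sec24d, which serve ion balance and vesicle export of the endoplasmic reticulum, rose in both (0.95 and 1.26 for Tmem38b, 0.79 and 0.53 for Sec24d). With median centring the second change of Sec24d was -0.31.

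Among processing genes, Bmp1, the protease that removes the C-propeptide, rose from E14 to E18 (1.78, adjusted p = 1.2e-06) and was not called thereafter. Its enhancer protein Pcolce2 rose (1.13) and then fell (-2.33), the cross-linking enzyme Loxl2 fell from E18 to P56 (-1.26), and Loxl1 fell from E14 to E18 (-0.56). Fn1, the fibronectin on which fibrils assemble, rose by 3.34 to E18 (adjusted p = 2.4e-08) and fell by 2.84 to P56 (adjusted p = 5e-08). Lum, the keratan sulfate proteoglycan lumican, fell in both intervals (-1.41 and -0.76), Fbln1 fell in the first (-0.73), Fbn1 fell in the second (-0.98), and Prelp rose in both (1.44 and 0.45). Of the 13 basement membrane partners tested, 5 rose from E14 to E18, where 24.5% of all genes tested did. Nid1, which links laminin to type 4 collagen, rose by 1.94 (adjusted p = 1.2e-06) and fell by 3.34 (adjusted p = 1.1e-08), and the laminin chains Lamc1 (0.96 and -1.25) and Lamb1-1 (0.59 and -1.59) did likewise, while Lama3 rose slightly from E18 to P56 (0.29).

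Of the collagenases, Mmp8 of neutrophils rose by 3.48 from E14 to E18 (adjusted p = 2.6e-09) then fell by 2.05 to P5 (adjusted p = 5.4e-06), and it fell by 3.54 from E18 to P56 (adjusted p = 1.3e-09), and Mmp9 followed (1.88 and -2.01). Mmp2 and the collagen uptake receptor Mrc2 fell from E14 to E18 (-0.35 and -0.57), and the inhibitor Timp1 rose in both intervals (0.54 and 0.53), with opposite signs in the authors' table for E18 against E14 (-0.46) and under median centring for P56 against E18 (-0.38). Gpr56, a receptor of type 3 collagen, fell by 3.55 from E18 to P56 (adjusted p = 1.9e-08) and the receptor kinase Ddr1 fell by 0.88, whereas the integrin chain Itga1 rose to E18 (0.79) and Ddr2 fell (-0.56), and Lair1 rose to P56 (0.88). Among TGF-beta inputs, the ligands Tgfb1, Tgfb2 and Tgfb3 fell from E14 to E18 (-0.25, -0.66 and -0.94), and Tgfb1 and Tgfb2 fell again from E18 to P56 (-0.56 and -0.80). The receptor Tgfbr2 rose to E18 (0.89). Ctgf, a matricellular target of that pathway, rose in both intervals (0.51 and 1.49), so the ligands and this target did not move one way. Of these calls, those of Lamb1-1, Mmp2, Tgfb1 and Ctgf from E14 to E18 were each lost in 10 to 13 of the 26 alternative settings, and those of Lama3 and Lair1 from E18 to P56 in 7 of 24 and 8 of 25.

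**Figure D4:**
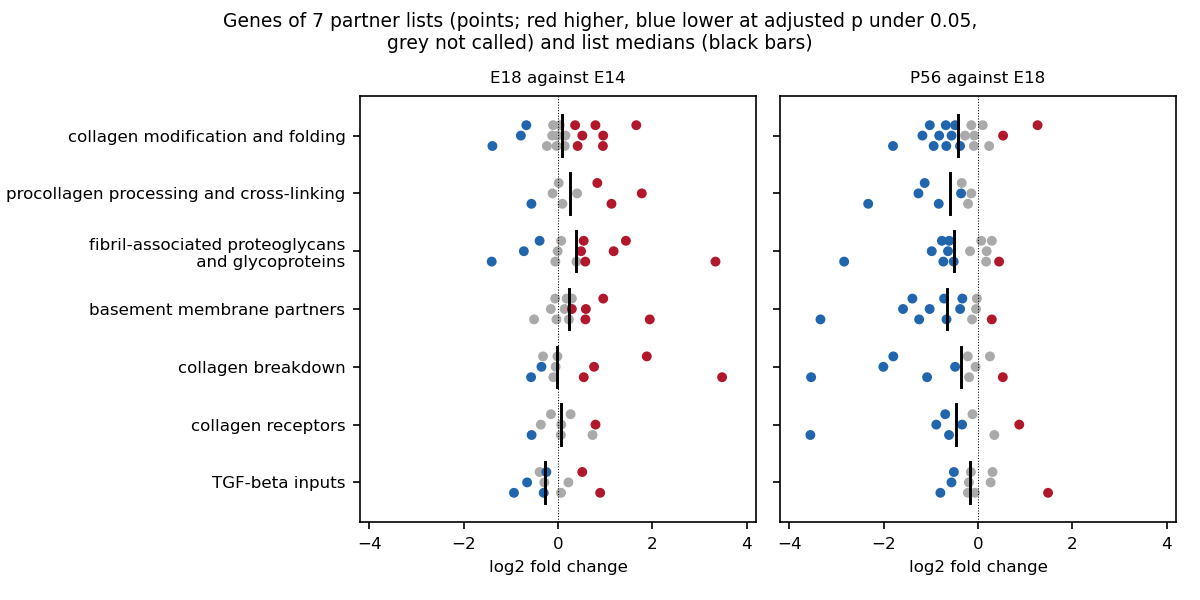
Log2 fold change (horizontal axis) of the genes of 7 partner lists (vertical axis) from E14 to E18 and from E18 to P56; each point is 1 gene, red where called higher, blue where called lower and grey otherwise, and black bars are list medians. The median of the modification and folding list is -0.43 from E18 to P56, and single genes reach 3.48 (Mmp8) and -3.55 (Gpr56).

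Markers of the cells that could supply these RNAs also moved between stages. Of 16 stellate and mesenchymal markers tested, 2 rose and 6 fell from E14 to E18, and 3 rose and 7 fell from E18 to P56. Of all genes tested, 24.5% rose and 22.8% fell in the first interval, and 31.3% rose and 33.5% fell in the second. Their mean log2 ratio was -0.09 to -0.01 at E14, -0.15 to -0.13 at E18, 0.08 and -0.09 at P5, and -0.44 to -0.37 at P56. The markers did not move as one. From E18 to P56 Vim and Acta2, cytoskeletal genes of activated mesenchymal cells, fell (log2 fold changes -2.83 and -2.06), while Lrat, which stores vitamin A in stellate cells, rose by 1.58. Pdgfra, a marker of fibroblasts, had log2 ratios of 0.77, 1.32 and 0.62 at E14 and -0.15 to -0.29 at E18. All 11 macrophage markers rose from E14 to E18 and 7 fell from E18 to P56, and all 11 erythroid markers fell from E18 to P56, from means of 3.26 to 3.41 to means of -0.23 to 0.06. All 4 mesothelial markers tested, of 6 listed, fell from E18 to P56. Of the 6 biliary markers tested, 4 rose from E14 to E18 and 5 fell from E18 to P56, and all 5 hepatoblast markers fell from E18 to P56. The part of any of these cell types in the collagen values was not tested.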

How the data were processed

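The authors deposited the Feature Extraction output of each array, with spot intensities of both channels, local background and quality marks, not normalized between arrays. They also deposited a table of log2 ratios averaged per gene, which served as an alternative. The scanner's own log10 ratios were not used. Cy5 over Cy3 follows the labels.

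Mean spot intensities were background-corrected by normexp (offset 50) and log2 ratios normalized by loess within arrays. Control spots and spots marked as outliers were left out, spots of a probe averaged, and probes kept that were well above background in Cy5 on every array of 1 stage or more, with at most 1 missing value per stage. The brightest probe stood for a gene, under the name of the array design. A probe not well above background on any array of a stage gave a bound only, taken in the Cy5 channel after Aquantile scaling, in which each dim array was set to the lowest signal that counted as above background there, or to its own signal where that was higher. Promoter windows came from RefSeq.

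Stages were compared with limma 3.58.1 in R 4.3.3 (lmFit and eBayes over all 11 arrays, no covariate, Benjamini-Hochberg over 16702 genes, of which 263 lacked a value on some array and were fitted without it). An F test covered all stages. On simulated data with 200 of 16702 genes changed, the fit recovered 42%, 80%, 100% and 100% of log2 changes of 0.5, 1, 2 and 3 for E18 against E14. Of its 174 calls, 13 were of unchanged genes. In the real comparison 24.5% of genes were called higher and 22.8% lower, so these shares do not give the power of the tests reported. The number of arrays limits precision.

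The collagen genes, partner lists and marker lists were chosen with earlier results of these data known. Named were the 5 largest rises and falls per comparison among called collagen genes, all chains of types 1, 3, 4, 5, 6, 15 and 18, and per partner list the 2 largest rises and falls from E14 to E18 and from E18 to P56. Col7a1, Col11a1 at E18 against P56, Col13a1 and Col16a1 at P56, marker genes and other genes named as exceptions were added after their values were seen. Marker lists covered stellate and mesenchymal, mesothelial, endothelial, macrophage, erythroid, hepatocyte, hepatoblast, biliary, chondrocyte and skeletal muscle genes. Alternatives were other background corrections, normalizations, filters and probe choices, the Cy5 channel alone, the authors' table, each array left out, blocks for the replicate number or the scan, and the methods' t-test. The scan as a fixed block was fitted only for E18 against E14 and P56 against P5. Plots were made in Python 3.11.15 with matplotlib 3.10.9.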

Additional observations from a re-analysis of the deposited data

How the results depend on the processing

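The counts of called collagen genes that moved by over 1.5 times were mostly small ones. For P5 against E18 the count of genes called lower (1) was 2 without background correction, 2 with the mean over probes, and 0 with the authors' table and with the methods' t-test, and the count called higher (1) was 0 with the scanner's processed signals, with median centring, with the authors' table and with the t-test. At an unadjusted p under 0.05 that t-test called 2 lower and 2 higher. For P56 against P5 the count called higher (1) was 3 without background correction, 4 with processed signals, 0 with median centring, 4 with the Cy5 channel alone, 2 without the filter on dim probes, 2 with the mean over probes, and 0 with the scan as a fixed block and with the t-test, by which the count called lower (14) was 0 as well, against 10 lower and 1 higher at an unadjusted p under 0.05. For P56 against E18 the count called higher (4) was 1 with median centring, and for P56 against E14 (5) it was 2 with median centring, 3 with the mean over probes and 3 with the authors' table. For E18 against E14 the count called lower (4) was 1 with the scan as a fixed block and 2 with the t-test. The cause was not tested.

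With each array left out in turn, genes called from E14 to E18 numbered 7 to 7 higher and 2 to 6 lower, from E18 to P5 0 to 2 and 0 to 9, from P5 to P56 0 to 3 and 11 to 16, from E18 to P56 4 to 4 and 16 to 17, from E14 to P56 5 to 5 and 13 to 15, and by the F test 21 to 24. The 9 lower calls from E18 to P5 arose without P5 replicate 2, when 1 P5 array was left and assumed to vary like the other stages, and the 0 without P5 replicate 3. Deviations from the stage mean had r of -0.303 to 0.186 between same-numbered arrays and -0.458 to 0.458 between arrays with different numbers. Deviations from a mean of 2 or 3 arrays are tied to each other, so these values cannot decide whether the numbers pair the arrays. With the replicate number as a block, 3 collagen genes were called lower from E18 to P5 in place of 1, and the other counts stayed within 1.5 times.

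Some single genes changed direction. With median centring in place of loess the median change of all genes was -0.47, -0.42 and -0.33 (P56 against P5, E18 and E14), against -0.020, -0.0082 and 0.042 with loess, and this setting turned Col4a4 (-0.71), Col4a6 (-0.058), Col9a2 (-0.40), Sec24d (-0.37), Prelp (-0.74) and Timp1 (-0.40) for P56 against P5, Col4a4 (-0.70), Col5a3 (-0.42), Col9a2 (-0.29), Sec24d (-0.31), Prelp (-0.27), Timp1 (-0.38) and Lair1 (-0.034) for P56 against E18, and Col9a2 (-0.19) and Fn1 (-0.28) for P56 against E14. The Cy5 channel alone turned Lair1 for P56 against P5 (-0.51), Col25a1 for P56 against E18 (0.45) and Itga1 for P56 against E14 (-0.053). Outlier spots kept turned Col2a1 in 4 comparisons (0.14, 0.27, 0.44 and 0.59). The authors' table turned Col1a2 (0.23), Col4a4 (0.61), Col6a3 (-0.17) and Timp1 (-0.46) for E18 against E14, P4ha2 (0.62) for P5 against E18, Col4a4 (-1.16), Col4a6 (-0.072), Col6a3 (0.31), Timp1 (-0.40) and Tgfbr2 (0.31) for P56 against P5, Col4a4 (-1.07), Col4a6 (-0.20) and Col6a3 (0.14) for P56 against E18, and Col4a6 (-1.20), Col14a1 (-0.39) and Timp1 (-0.40) for P56 against E14. Over all settings, 3346 values of single collagen genes kept their side of the threshold, 99 lost and 83 gained a call, and 23 reversed. A reversal was counted only where the value or the reported one was called. The 3346 can therefore include changes of sign between values that were not called. Signal over background limits what P56 values show for Col6a1, Col7a1, Col8a2 and Col11a1.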
